A study of Mus musculus with 12 samples.

Results

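Kdm6a, Kdm5c and Phf8 are the 3 X-linked histone demethylase genes described here, taken by symbol from a table of 952 X-linked genes. All 3 had a value in each of the 8 ChIP libraries, as did 698 genes in all. ChIP-seq, the sequencing of DNA pulled down with an antibody, gave the level of 2 methyl marks of silenced chromatin, H3K27me3 and H3K9me3. The cells were female mouse cells with a mutation in SmcHD1, a chromosomal protein needed to keep the inactive X silent, and wild-type cells. The 4 cell groups were MD1 MEFs and WT MEFs, embryonic fibroblasts from E13.5, and MD1 EpiSCs and WT EpiSCs, epiblast stem cells from E6.5. MD1 cells were homozygous for the Smchd1 MD1 allele (Smchd1 MD1/MD1), and WT cells were Smchd1 +/+. Every group, WT included, also carried Xist deltaA on 1 X (Xist deltaA/+) and came from a cross of C57BL6/J with a JF1 x C57BL6/J F1 parent. Each mark was measured in 1 library per group, beside 1 input per group.

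The protein of each gene uses a JmjC domain, which needs iron and 2-oxoglutarate, to remove methyl groups from histone lysines. KDM6A, also called UTX, removes them from H3K27, one of the marks measured here. KDM5C removes them from methylated H3K4, a mark of active promoters, and PHF8 from mono- and dimethylated H3K9 and from H4K20. Kdm6a and Kdm5c are known to escape X inactivation in mice, that is, to be expressed from the inactive X as well as from the active one. H3K27me3 is laid over the inactive X by Polycomb complexes that follow Xist RNA, and H3K9me3 marks other stretches of its heterochromatin.

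The promoters are shown for their CG content, since Polycomb complexes are known to favour CG-rich promoters and the 3 genes differ in H3K27me3. The sequences are RefSeq's, from 250 bases before to 50 bases after the start, and their coordinates are in GRCm38.p6, not in the mm9 build of the measurements. Capitals mark CG dinucleotides.
Kdm6a, chrX:18162325-18162624, plus strand: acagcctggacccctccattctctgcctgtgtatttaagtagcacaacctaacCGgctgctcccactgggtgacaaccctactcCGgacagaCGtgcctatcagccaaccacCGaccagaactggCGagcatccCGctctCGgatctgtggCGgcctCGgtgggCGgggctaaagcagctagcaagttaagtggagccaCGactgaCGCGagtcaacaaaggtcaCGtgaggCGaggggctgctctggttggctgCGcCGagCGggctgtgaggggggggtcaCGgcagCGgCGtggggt
Kdm5c, chrX:152232977-152233276, plus strand: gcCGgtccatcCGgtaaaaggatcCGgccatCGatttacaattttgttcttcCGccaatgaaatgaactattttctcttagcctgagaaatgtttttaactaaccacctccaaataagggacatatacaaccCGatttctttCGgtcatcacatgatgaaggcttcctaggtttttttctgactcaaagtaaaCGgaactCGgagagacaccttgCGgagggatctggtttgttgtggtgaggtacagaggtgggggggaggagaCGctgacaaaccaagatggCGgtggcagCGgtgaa
Phf8, chrX:151520422-151520721, plus strand: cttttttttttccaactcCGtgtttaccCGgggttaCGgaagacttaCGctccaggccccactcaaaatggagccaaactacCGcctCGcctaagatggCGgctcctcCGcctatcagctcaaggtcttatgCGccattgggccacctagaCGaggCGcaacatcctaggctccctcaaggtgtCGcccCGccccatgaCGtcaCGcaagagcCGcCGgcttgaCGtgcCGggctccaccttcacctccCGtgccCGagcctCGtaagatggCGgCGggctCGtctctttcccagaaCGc
The Kdm6a window held 21 CG dinucleotides, the Kdm5c window 13 and the Phf8 window 26, where the median of 1223 windows on the X was 7. These counts put Kdm6a at the 87.6 percentile of the X windows, Kdm5c at the 71.5 and Phf8 at the 93.4 percentile. Phf8 had the most CG dinucleotides and, in each group, the most H3K27me3 of the 3. Kdm5c had fewer CG dinucleotides than Kdm6a, and its log2 H3K27me3 was higher by 2.77 in MD1 EpiSCs and 4.72 in WT EpiSCs. In MEFs, Kdm5c minus Kdm6a was −0.63 (−1.17 to −0.08) in MD1 and 0.31 (−0.06 to 0.67) in WT. Whether CG content bears on the mark was not tested. The deposited values average over a whole gene, so they do not show the marks at these windows.

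Kdm6a lay on the X from 17739793 to 17856484 (mm9, 116692 bases), Phf8 from 147955215 to 148068400 (113186 bases) and Kdm5c from 148667770 to 148713642 (45873 bases). Phf8 and Kdm5c were neighbours, 599 kb apart with 5 other genes between them, and no other gene of the table overlapped a member. Values are the log2 of ChIP enrichment over input as the authors deposited it, so 0 equals input and 1 is a 2-fold enrichment. Each library carries its own unknown scaling constant, so a level above or below input is one on the deposited scale. Levels are therefore also given as percentiles, the share of measured genes at or below the member in that library, which no such constant changes. For the same reason a difference between libraries is given as deposited and again relative to the medians of the 698 genes. Intervals are 95% counting intervals from whole-number ChIP and input pairs recovered from the values. They cover counting error only, and both marks of a group share its input. With 1 library per group there was no test between groups, and no difference has a replicate check. A gene is counted as higher or lower at a difference of at least 2-fold. Smchd1 is autosomal and the table X-linked, so neither the genotype labels nor the cell types could be checked from it. No source used here says which X the reads came from.

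H3K27me3 set the 3 genes apart. Kdm6a ranked among the lowest genes in all 4 groups, Kdm5c among the lowest in all but WT EpiSCs, and Phf8 ranked near the middle of the X-linked genes except in MD1 MEFs. At Kdm6a the log2 enrichment was −2.45 in MD1 MEFs, −1.76 in WT MEFs, −2.57 in MD1 EpiSCs and −1.97 in WT EpiSCs. These values lay at the 5.57, 0.669, 0.136 and 2.50 percentiles of their libraries, and in MD1 EpiSCs no other of 736 genes was lower. Kdm6a was thus below input on the deposited scale in all 4 groups.

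At Kdm5c the log2 H3K27me3 enrichment was −3.07 in MD1 MEFs, −1.45 in WT MEFs, 0.19 in MD1 EpiSCs and 2.75 in WT EpiSCs. The percentiles were 3.18 in MD1 MEFs, 0.937 in WT MEFs, 2.45 in MD1 EpiSCs and 24.2 in WT EpiSCs. WT EpiSCs were thus the only group in which Kdm5c was clearly above input, with an enrichment of 6.75-fold.

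At Phf8 it was −0.80 in MD1 MEFs, 2.41 in WT MEFs, 3.91 in MD1 EpiSCs and 4.46 in WT EpiSCs. The percentiles were 13.3 in MD1 MEFs, 69.3 in WT MEFs, 39.0 in MD1 EpiSCs and 64.1 in WT EpiSCs. Only the MD1 MEF value was below input, at 0.576-fold, against 5.30-fold in WT MEFs.

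Within a library the members can be compared with no scaling. Phf8 carried more H3K27me3 than the other two in every group, as shown in the plot of levels by group. It exceeded Kdm6a by a log2 difference of 1.65 (1.35 to 1.96) in MD1 MEFs, 4.16 (3.92 to 4.40) in WT MEFs, 6.49 (6.13 to 6.84) in MD1 EpiSCs and 6.43 (6.06 to 6.79) in WT EpiSCs. Kdm5c exceeded Kdm6a by 2.77 (2.35 to 3.18) in MD1 EpiSCs and by 4.72 (4.37 to 5.07) in WT EpiSCs. In MEFs these 2 genes lay close together. Kdm5c minus Kdm6a was −0.63 (−1.17 to −0.08) in MD1 MEFs and 0.31 (−0.06 to 0.67) in WT MEFs, where the interval included 0.

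H3K9me3 was below input on the deposited scale at all 3 genes, with the exception of Phf8 in WT EpiSCs, while the ranks of the genes differed. In WT EpiSCs the log2 enrichment of Phf8 was 1.84, or 3.57-fold over input, close to the median of that library (percentile 46.7). In the other groups Phf8 had −1.13 in MD1 MEFs, −0.30 in WT MEFs and −1.51 in MD1 EpiSCs, at the 55.4, 41.0 and 33.6 percentiles. Phf8 therefore ranked near the middle of the X-linked genes in each group.

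Kdm6a had H3K9me3 values of −0.68 in MD1 MEFs, −0.88 in WT MEFs, −1.55 in MD1 EpiSCs and −1.43 in WT EpiSCs. Its percentile was 74.8 in MD1 MEFs, 13.4 in WT MEFs, 31.7 in MD1 EpiSCs and 4.17 in WT EpiSCs. Its rank was thus higher in MD1 than in WT cells of both types, while its deposited values differed by 0.20 in MEFs and by −0.12 in EpiSCs.

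Kdm5c had −1.65 in MD1 MEFs, −1.22 in WT MEFs, −2.26 in MD1 EpiSCs and −1.81 in WT EpiSCs. Its percentiles were 34.4 in MD1 MEFs, 6.43 in WT MEFs, 11.3 in MD1 EpiSCs and 2.09 in WT EpiSCs. The EpiSC values rested on few ChIP counts, 23 in MD1 and 19 in WT.

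**Figure D1:**
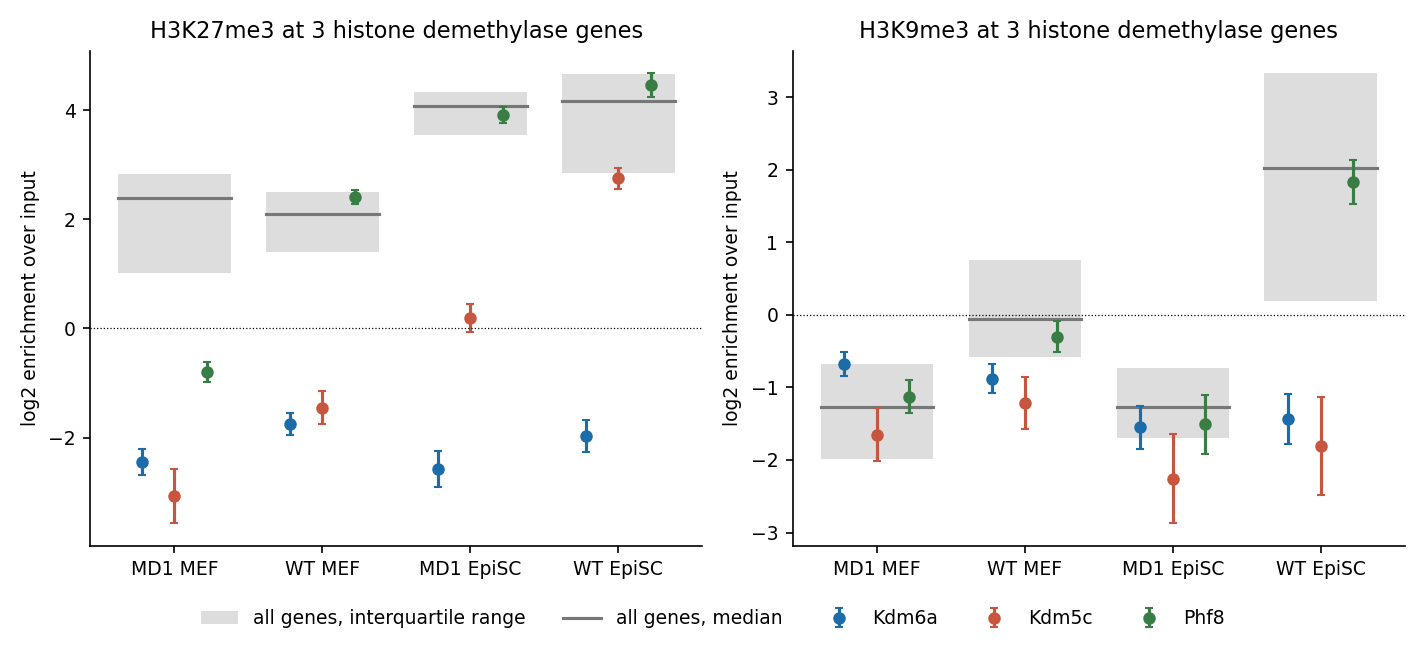
Log2 enrichment over input (vertical axes) of H3K27me3 (left) and H3K9me3 (right) in 1 library per group (horizontal axes), with 95% counting intervals as bars. Grey boxes and lines give the interquartile range and median of all measured genes: Kdm6a sits below 0 in every library, and Phf8 falls outside the H3K27me3 box in MD1 MEFs alone, at −0.80.

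The first comparison asks how each mark at these genes depends on SmcHD1. In MEFs, H3K27me3 was lower in MD1 than in WT at all 3 genes, by 9.20-fold at Phf8, 3.08-fold at Kdm5c and 1.61-fold at Kdm6a. The log2 change was −3.20 (−3.42 to −2.98) at Phf8, −1.62 (−2.20 to −1.05) at Kdm5c and −0.69 (−1.01 to −0.37) at Kdm6a. At least 2-fold lower were 2 of the 3, where 24.0% of 739 genes were, and 0 were higher, where 22.3% were. The median change of all genes was 0.34, and relative to the medians of the 698 genes the 3 changes were −3.48, −1.90 and −0.97. On that scale the same 2 were at least 2-fold lower, where 26.1% of genes were, and 0 were higher, where 16.0% were. Phf8 thus had 76 of the 739 genes with a larger decrease. The decrease at Phf8 was larger than that at Kdm5c by 1.58 on the log2 scale (difference −1.58, −2.20 to −0.96) and larger than that at Kdm6a (difference −2.51, −2.90 to −2.12). At Kdm5c and Kdm6a both values were already below input in WT MEFs, whereas Phf8 was above input in WT MEFs and below it in MD1 MEFs. With 0.1 added to the linear enrichment, the Kdm5c change was −1.09 and the Kdm6a change −0.48.

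In EpiSCs the order was another one, and Kdm5c had the largest decrease of the 3. Its H3K27me3 was 0.19 in MD1 EpiSCs and 2.75 in WT EpiSCs, a change of −2.56 (−2.88 to −2.25) or 5.91-fold lower. Only 9 of 708 genes had a larger decrease. Phf8 changed by −0.55 (−0.80 to −0.29) and Kdm6a by −0.61 (−1.05 to −0.17), both under 2-fold. So 1 of the 3 was at least 2-fold lower, where 11.3% of the 708 genes were, and 0 were higher, where 22.7% were. Relative to the medians Kdm5c was again the 1 gene lower, where 9.89% were, and 0 were higher, where 24.9% were. The median change of all genes was −0.069. Centring on genes poor in H3K9me3 in WT cells left −0.14 at Kdm6a and −0.08 at Phf8, and −2.10 at Kdm5c. Poor genes were those of the 698 under 2-fold over input in H3K9me3 in WT cells of the same type. MEFs and EpiSCs thus had different sets of them.

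Whether the change differed between cell types can be read from the difference of the 2 changes, MEF minus EpiSC, against the same quantity in all 698 genes (median −0.0025). It was −2.65 (−2.99 to −2.31) at Phf8, 0.94 (0.28 to 1.60) at Kdm5c and −0.083 (−0.63 to 0.46) at Kdm6a. Phf8 therefore had the larger decrease in MEFs beyond counting error, and it did so too relative to the medians of the 698 genes (−3.03, −3.37 to −2.69). At Kdm5c the deposited interval left out 0, but relative to those medians the difference was 0.56 (−0.09 to 1.22), and centred on genes poor in H3K9me3 in WT cells it was 0.23 (−0.43 to 0.89). At Kdm6a those 2 scales gave −0.46 (−1.001 to 0.084) and −0.79 (−1.33 to −0.25). The call at Kdm5c and that at Kdm6a thus depend on the scaling. The differences of Phf8, Kdm5c and Kdm6a lay at the 17.8, 82.7 and 47.9 percentiles of all genes.

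H3K9me3 in MD1 MEFs was lower than in WT MEFs across the X, with a median change of −1.02, and the 3 genes changed less than that. The change was 0.20 (−0.06 to 0.46) at Kdm6a, −0.43 (−0.94 to 0.08) at Kdm5c and −0.83 (−1.14 to −0.52) at Phf8. None of the 3 was at least 2-fold lower, where 51.3% of 739 genes were, and none at least 2-fold higher, where 0.677% were. The intervals of Kdm6a and Kdm5c included 0. Relative to the medians of the 698 genes the values were 1.36, 0.73 and 0.34, so that Kdm6a was more than 2-fold higher on that scale, as were 11.5% of genes, and 0 were lower, where 22.3% were. The sign of the H3K9me3 change at Kdm5c and Phf8 thus depends on the scaling.

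In MD1 EpiSCs the median H3K9me3 change of all genes was −2.98, and Phf8 was lower as well. It had −1.51 in MD1 EpiSCs and 1.84 in WT EpiSCs, a change of −3.35 (−3.85 to −2.84), or 10.2-fold lower. Kdm6a changed by −0.12 (−0.57 to 0.34) and Kdm5c by −0.45 (−1.36 to 0.45), from values below input in WT EpiSCs. At least 2-fold lower was 1 of the 3, where 82.9% of 708 genes were, and 0 were higher, where 1.13% were. Relative to the medians of the 698 genes Phf8 stood at −0.04, while Kdm6a was at 3.19 and Kdm5c at 2.85, where 38.4% of genes were at least 2-fold higher and 22.9% lower on that scale. Centred on genes poor in H3K9me3 in WT cells, Phf8 was at −2.15, Kdm6a at 1.08 and Kdm5c at 0.74, so the calls of Phf8 and Kdm5c differ between the 2 centrings. The sign at Kdm6a and Kdm5c also differs between the deposited scale and either centring. The poor genes were picked by the same WT H3K9me3 values that these changes start from. The decrease at Phf8 exceeded that at Kdm6a (difference −3.23, −3.91 to −2.55) and that at Kdm5c (difference −2.90, −3.93 to −1.86). Kdm5c and Kdm6a did not differ beyond counting error (−0.34, −1.35 to 0.68).

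**Figure D2:**
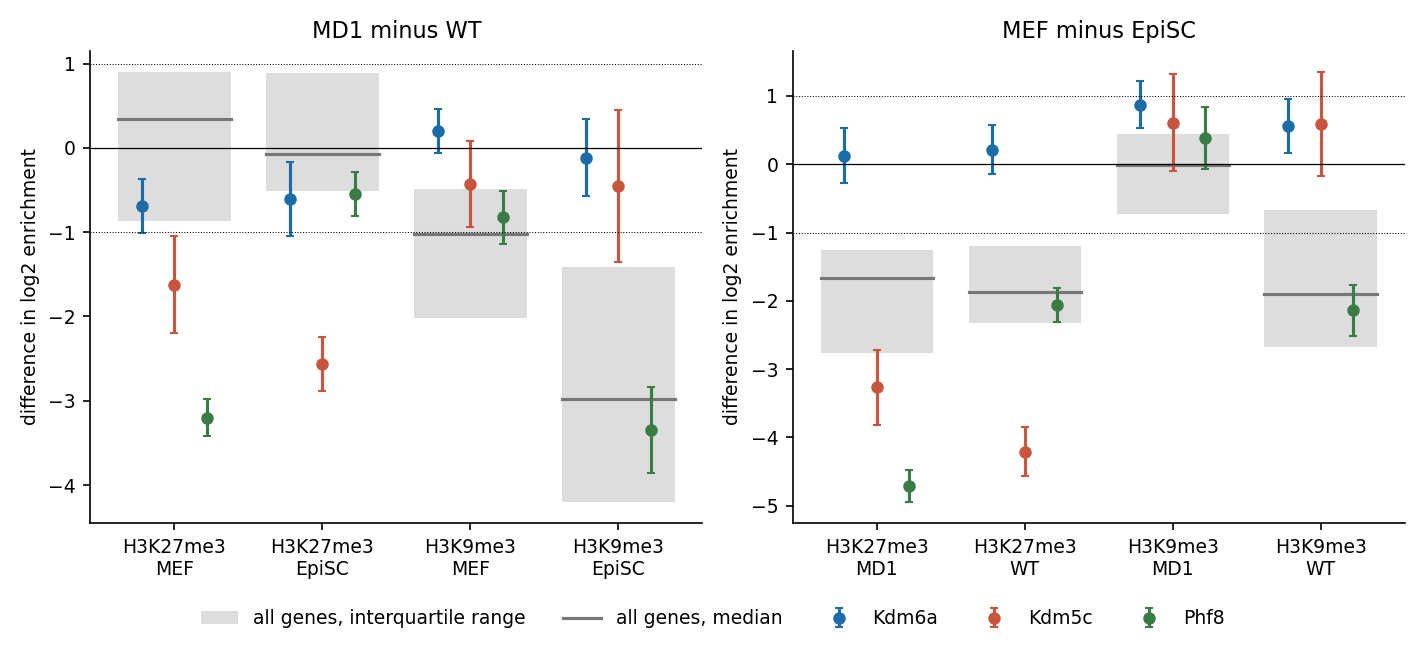
Differences in log2 enrichment (vertical axes) for MD1 minus WT (left) and MEF minus EpiSC (right), as deposited, with 95% counting intervals as bars, grey boxes for the interquartile range and grey lines for the median of all genes, and dotted lines at 2-fold. H3K27me3 at Phf8 lies at −3.20 in MEFs and at −0.55 in EpiSCs on the left, and Kdm5c at −4.21 in WT on the right.

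The second comparison sets MEFs against EpiSCs and shares its libraries with the first. Cell type and embryonic stage differ together here, so they cannot be told apart. The library medians of H3K27me3 were lower in MEFs than in EpiSCs, so the shift of all genes is part of every value. Among WT cells, Kdm5c had the largest decrease of 711 genes in H3K27me3, with −1.45 in WT MEFs and 2.75 in WT EpiSCs, a difference of −4.21 (−4.56 to −3.85). Relative to the medians of the 698 genes it was −2.13, or 4.39-fold lower. Phf8 differed by −2.06 (−2.31 to −1.80), and by 0.02 relative to those medians, so it followed the shift. Kdm6a differed by 0.21 (−0.15 to 0.57) as deposited and by 2.28 relative to the medians. As deposited 2 of the 3 were at least 2-fold lower, where 78.2% of genes were, and 0 were higher, where 6.47% were. On the relative scale only Kdm5c was lower, where 2.11% were. Kdm6a was at least 2-fold higher on that scale, as were 22.6%.

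Among MD1 cells, Phf8 had the largest of the 3 differences in H3K27me3. It had −0.80 in MD1 MEFs and 3.91 in MD1 EpiSCs, a difference of −4.71 (−4.94 to −4.48), or −3.01 relative to the medians. Kdm5c differed by −3.27 (−3.82 to −2.71), or −1.57 relative to them, and Kdm6a by 0.13 (−0.28 to 0.53), or 1.82. At least 2-fold lower as deposited were 2 of the 3, where 82.5% of 726 genes were, and 0 were higher, where 1.93% were. The same 2 genes were lower on the relative scale, where 25.8% of genes were, and Kdm6a was higher, where 12.3% were.

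H3K9me3 at Phf8 was lower in WT MEFs than in WT EpiSCs by an amount that depends on the scaling. The difference was −2.14 (−2.51 to −1.76) as deposited, −0.0064 relative to the medians of the 698 genes, and −1.999 when centred on genes poor in H3K9me3 in WT cells, a scale added here after the data were seen. That scale uses different genes in MEFs and EpiSCs, picked by the same WT H3K9me3 values that it centres. In WT EpiSCs its H3K9me3 median was −0.21, where that of the 698 genes was 2.03. It therefore gives no common reference for the 2 cell types. Kdm6a (0.56, 0.16 to 0.95) and Kdm5c (0.59, −0.17 to 1.35) were low in both, and their relative values were 2.69 and 2.72. At least 2-fold lower was 1 of the 3 as deposited, where 68.2% of 711 genes were, and 0 were higher, where 3.52% were. On the relative scale 2 were higher, where 34.3% were, and 0 lower, where 13.1% were. On the added scale Kdm6a was at 0.69 and Kdm5c at 0.73, both under 2-fold, so the calls depend on the centring. The share of all genes past 2-fold was not counted on that scale. In MD1 cells the 3 differences were 0.87 (0.53 to 1.21) at Kdm6a, 0.61 (−0.10 to 1.32) at Kdm5c and 0.38 (−0.08 to 0.85) at Phf8. None reached 2-fold, where 19.0% of 726 genes were lower and 10.3% higher.

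Each member was set beside the measured genes next to it, whose spacing limits what can be seen. Kdm6a formed a dip of 1 gene in H3K27me3. Its 3 measured neighbours on each side (Ndp, Efhc2 and Fundc1 before it, 4930578C19Rik, Chst7 and Slc9a7 after it) ranged from 1.12 to 2.81 in MD1 MEFs, 0.98 to 2.17 in WT MEFs, 2.68 to 4.24 in MD1 EpiSCs and 2.98 to 4.41 in WT EpiSCs. All 6 were above Kdm6a in each library, and Kdm6a minus their median was −5.08 in MD1 MEFs, −3.57 in WT MEFs, −6.61 in MD1 EpiSCs and −5.91 in WT EpiSCs.

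Kdm5c also formed a dip of 1 measured gene, with the nearest genes starting 89 kb before and 62 kb after its start. Its neighbours were Ribc1, the cohesin subunit gene Smc1a, Iqsec2, Kantr, Tspyl2 and the receptor gene Gpr173. Their H3K27me3 ranged from −1.11 to 2.71 in MD1 MEFs, 2.91 to 3.25 in WT MEFs, 2.65 to 4.13 in MD1 EpiSCs and 4.57 to 5.01 in WT EpiSCs. All 6 were above Kdm5c in each library. The genes just after it, Kantr and Tspyl2, had lower H3K27me3 in MD1 EpiSCs than in WT EpiSCs by nearly as much as Kdm5c. Kantr had 2.65 in MD1 EpiSCs and 4.87 in WT EpiSCs (change −2.21), and Tspyl2 had 2.78 in MD1 EpiSCs and 5.01 in WT EpiSCs (change −2.23). Further on, Shroom2 had 1.36 in MD1 EpiSCs and 4.73 in WT EpiSCs, a larger decrease than at Kdm5c. Gpr143 beyond it had 2.97 and 4.74. Between Tspyl2 and Shroom2, Gpr173 (3.68 and 4.57) and 3010001F23Rik (4.06 and 4.70) differed less.

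Phf8 did not form a dip in WT cells, where its H3K27me3 lay within the range of its neighbours: 2.28 to 2.91 in WT MEFs and 3.57 to 4.88 in WT EpiSCs. In MD1 MEFs, Phf8 and the measured genes after it through 3010001F23Rik, beyond Kdm5c, had lower H3K27me3 than in WT MEFs, by unequal amounts. After Phf8 (−3.20), the change was −6.25 at the ubiquitin ligase gene Huwe1, −1.36 at the mitochondrial enzyme gene Hsd17b10, −1.75 at Ribc1 and −4.25 at Smc1a. Iqsec2 changed by −0.31 and Kdm5c by −1.62. After Kdm5c the change was −1.14 at Kantr, −0.74 at Tspyl2 and −0.59 at Gpr173. 3010001F23Rik had 2.85 in MD1 MEFs and 3.01 in WT MEFs, whereas Shroom2 had 2.98 and 2.68. At the 3 neighbours before Phf8 the changes were above 0, with 0.22 at Fam120c, 0.79 at A230072E10Rik and 0.59 at the kinase gene Wnk3. Beyond these, Tsr2 was lower in MD1 MEFs (1.19) than in WT MEFs (2.64). Fgd1 (2.74 in MD1 MEFs, 2.52 in WT MEFs) and Gnl3l (2.69 and 2.59) were not. In EpiSCs no gene of the Phf8 to Kdm5c interval was at least 2-fold lower except Kdm5c itself, with Huwe1 at −0.99 and Smc1a at −0.92.

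H3K9me3 in WT EpiSCs was above input at Phf8 and at its 6 neighbours, which ranged from 0.29 to 1.74. Around Kdm5c it was lower, with 0.03 at Smc1a, −1.47 at Iqsec2, −1.81 at Kdm5c and −3.34 at Kantr. Next to Kdm6a it was −1.76 at Fundc1 and −1.21 at 4930578C19Rik, whereas Chst7 and Slc9a7 further on had 3.06 and 3.28.

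**Figure D3:**
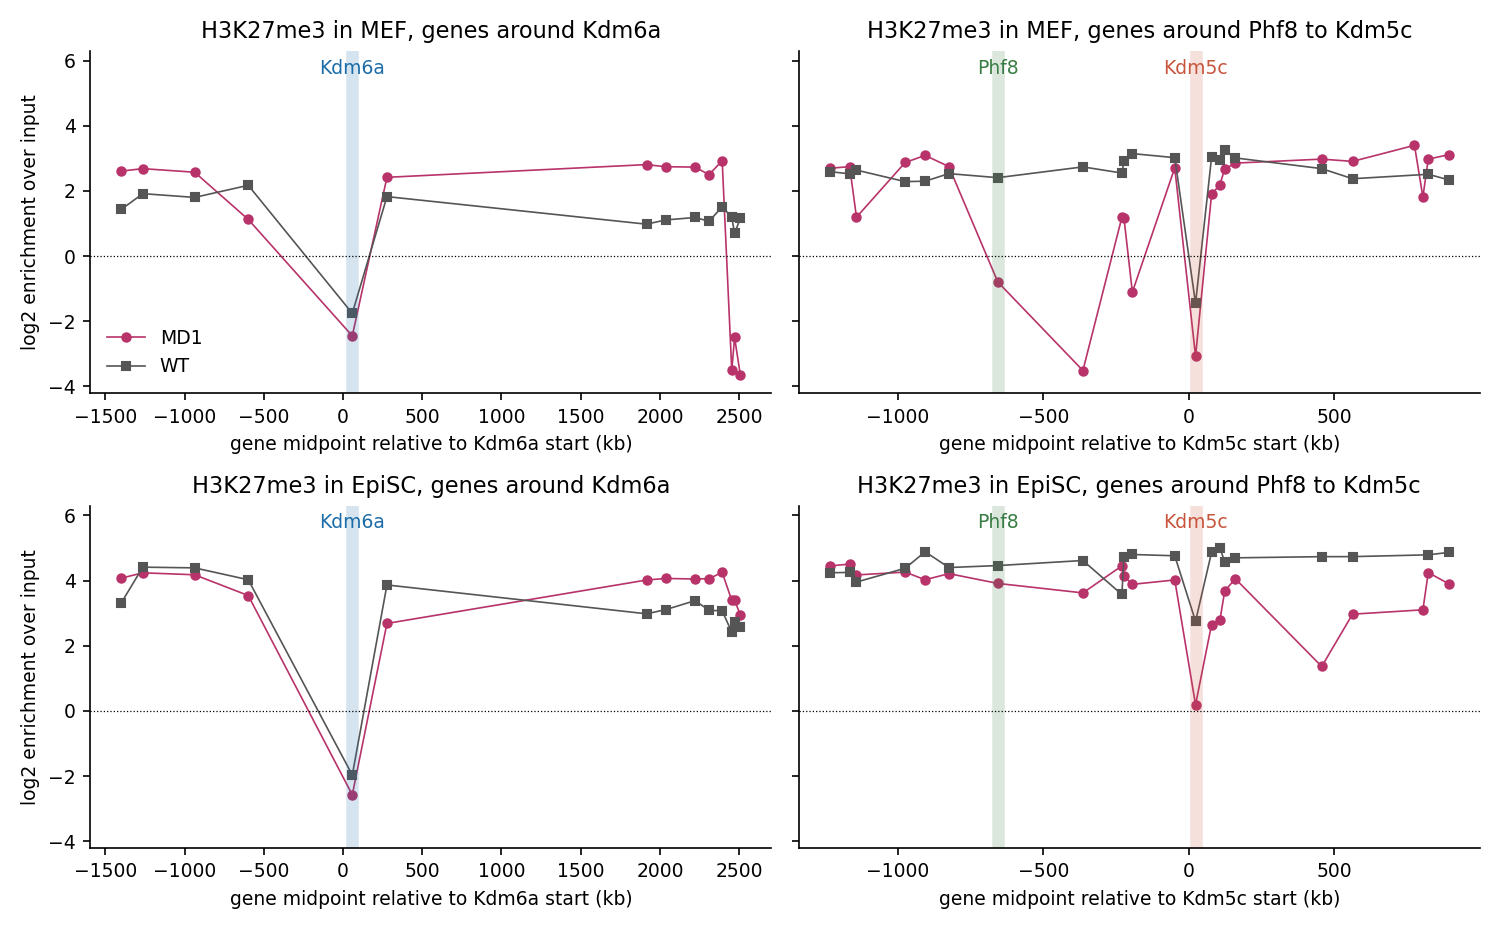
Log2 H3K27me3 enrichment (vertical axes) at genes around Kdm6a (left) and from before Phf8 to beyond Kdm5c (right) in MEFs (top) and EpiSCs (bottom), against the distance of the gene's midpoint from the start of Kdm6a or Kdm5c in kb (horizontal axes). Each point is 1 gene in 1 library (circles MD1, squares WT): both genotypes dip at Kdm6a and Kdm5c, and MD1 MEFs are low from Phf8 (−0.80) through Huwe1 (−3.51).

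Across all 8 libraries, the 3 genes closest to Kdm5c, and the 3 closest to Kdm6a, were all among the other escape genes listed below. Likeness was the root mean square difference of the 8 log2 values, in which scaling constants cancel, over 695 other genes. The 3 closest to Kdm5c were 5530601H04Rik (0.721), Eif2s3x (0.821), which encodes a translation initiation factor subunit, and Pbdc1 (0.828), with a median over all genes of 3.12. For Kdm6a they were Xist (1.24), which carries a deletion in every group here, the RNA helicase gene Ddx3x (1.51) and Jpx (1.63), with a median of 4.04. For Phf8 they were Trappc2 (0.412), Ofd1 (0.417), a gene of the ciliary base, and Slc10a3 (0.437), with a median of 1.49. Trappc2 had H3K27me3 of −0.48 in MD1 MEFs and 2.43 in WT MEFs, where Phf8 had −0.80 in MD1 MEFs and 2.41 in WT MEFs. Between members the difference was 2.003 for Kdm6a and Kdm5c, 2.54 for Kdm5c and Phf8, and 3.79 for Kdm6a and Phf8. By Pearson correlation, 2 of the 3 genes named for Kdm5c, 1 of those for Kdm6a and 0 of those for Phf8 were again among the 3 closest. That measure put Rab9 first for Kdm5c, and Samt4 and Klhl4 ahead of Xist for Kdm6a, none of these on the list of escape genes except Xist.

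The other genes known to escape inactivation, a list of 9 measured genes (Ddx3x, Eif2s3x, Utp14a, Pbdc1, Car5b, 5530601H04Rik, Xist, Ftx and Jpx), had a median H3K27me3 of −1.87 in MD1 MEFs, −0.72 in WT MEFs, 1.18 in MD1 EpiSCs and 2.86 in WT EpiSCs. Kdm6a was below that median in all 4 groups, and Kdm5c below it in all 4 as well, by little in WT EpiSCs (2.75). Between MD1 and WT MEFs, H3K27me3 was at least 2-fold lower at 5 and higher at 0 of these genes (median change −1.16, against 0.34 over all genes), where 24.0% of all genes were lower and 22.3% higher, with −3.58 at the ribosome assembly gene Utp14a. In MD1 EpiSCs 6 were lower and 1, Ddx3x, was higher (median −1.31, against −0.069), where 11.3% of all genes were lower and 22.7% higher. The largest decreases there were −3.54 at Ftx and −2.06 at Jpx, both noncoding RNA genes next to Xist, so the −2.56 of Kdm5c lay between them. In H3K9me3 the list's median change was 0.02 in MEFs and −0.48 in EpiSCs, where all genes had −1.02 and −2.98. At least 2-fold lower in H3K9me3 were 1 of 9 in MEFs and 3 of 9 in EpiSCs, where 51.3% and 82.9% of all genes were, and 1 was higher in MEFs, where 0.677% were. Relative to the medians of the 698 genes the direction was the other one, with 0 lower and 5 higher in MEFs, where 22.3% and 11.5% of all genes were, and 0 lower and 8 higher in EpiSCs, where 22.9% and 38.4% were.

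The other X-linked chromatin genes, 27 in the table, included many with large H3K27me3 decreases in MD1 MEFs. There 14 of 24 with values had levels lower by at least 2-fold and 2 had higher ones (median −1.72, against 0.34 over all genes), where 24.0% and 22.3% of all genes did. Examples were the O-GlcNAc transferase gene Ogt (−6.12) and the TFIID subunit gene Taf1 (−5.73). In MD1 EpiSCs 5 of 25 were lower and 6 higher (median −0.21, against −0.069), where 11.3% and 22.7% of all genes were, and Ogt (−4.11) and Taf1 (−1.87) were again lower. In H3K9me3, 18 of 24 were at least 2-fold lower in MD1 MEFs and 21 of 25 in MD1 EpiSCs, and 0 were higher in either, with median changes of −1.54 and −3.07. Of all genes, 51.3% were lower in MEFs and 82.9% in EpiSCs, so the EpiSC count was near the background. Centred on the 698 genes, 10 were lower and 0 higher in MEFs, where 22.3% and 11.5% of all genes were. In EpiSCs 8 were lower and 8 higher on that scale, where 22.9% and 38.4% were. The lists and the members were chosen with earlier results of these data known, so these counts are descriptions.

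**Figure D4:**
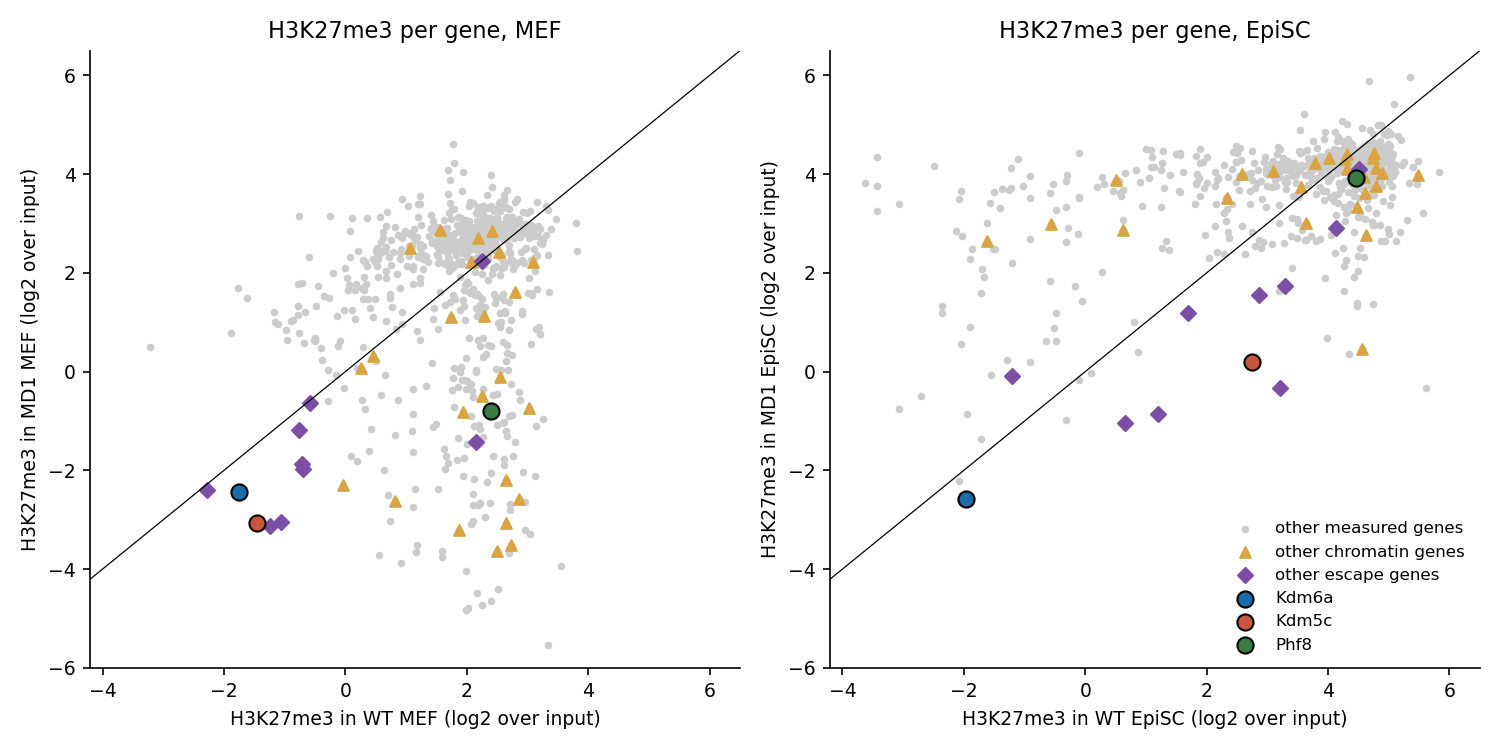
Log2 H3K27me3 enrichment per gene in MD1 cells (vertical axes) against WT cells (horizontal axes), in MEFs (left) and EpiSCs (right), with the line of equal values. Each point is 1 gene in 1 library pair: Kdm6a lies in the lower left of both panels, Kdm5c stands at −1.45 in WT MEFs and at 2.75 in WT EpiSCs on the horizontal axis, and Phf8 is far below the line in MEFs only (−0.80 in MD1 against 2.41 in WT).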

How the data were processed

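H3K27me3 and H3K9me3 ChIP-seq was analysed for 3 genes in 8 ChIP libraries, 1 per mark, genotype and cell type. Per the labels' protocols, mouse monoclonal antibodies and the NEBNext Ultra II kit were used, and per the submitters' processing notes, cutadapt, BWA, SAMtools and the build mm9. Neither the counting rule nor the scaling is stated in any source used. Per gene, the authors deposited a log2 enrichment over input, 719 to 754 per library out of 952 genes.

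Whole-number ChIP and input pairs were recovered by continued fractions (denominator at most 30000, relative tolerance 1e-12), with 1 constant per library. They matched 100% of the values in each library, and the procedure was tested on simulated counts. The pairs are the smallest possible, so true counts may be multiples. Their sums per library were 98736 (MD1 MEF), 122980 (WT MEF), 33117 (MD1 EpiSC) and 188886 (WT EpiSC) for H3K9me3, and 1186942, 879526, 1804080 and 1560574 for H3K27me3. The 95% counting intervals use a normal approximation on the log scale.

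Starts appear to be counted from 0: among 840 names shared with RefSeq (GRCm38.p6), 346 lengths were equal on that reading and 36 on the other. Coordinates are printed counted from 1. Named were the 3 members, 3 measured neighbours on each side, the 3 genes closest in pattern to each, and genes of 2 lists, in which 3 symbols absent from the table were 2610029G23Rik, Phf16 and Nsbp1, other names of Pbdc1, Jade3 and Hmgn5. The members and lists were chosen with earlier results of these data known. Alternatives were 2 centrings, a pseudocount of 0.1, a 3-fold threshold, leaving out low or short genes, and another likeness measure. Computations used Python 3.11.15, numpy 2.4.6 and pandas 2.3.3.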

Additional observations from a re-analysis of the deposited data

Results flagged for a closer look

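Kdm6a H3K9me3 had a change of opposite sign in the 2 cell types, 0.20 in MEFs (−0.06 to 0.46) and −0.12 in EpiSCs (−0.57 to 0.34). The changes relative to the medians of the 698 genes were 1.36 in MEFs and 3.19 in EpiSCs. Centred on genes poor in H3K9me3 in WT cells they were 1.16 in MEFs and 1.08 in EpiSCs, so the signs differed on the deposited scale only. Those poor genes were picked by the same WT H3K9me3 values, so that scale is no independent check of the sign. Both deposited counting intervals included 0, their difference of 0.31 (−0.21 to 0.84) did too, and the difference between cell types was not tested across samples.

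Ddx3x, one of the other escape genes, had deposited changes of opposite sign and more than 2-fold in both marks. Its H3K27me3 change was −1.98 in MEFs (−3.22 to −0.75) and 1.11 in EpiSCs (0.037 to 2.19), and relative to the medians −2.26 and 1.21. Its H3K9me3 change was 1.62 in MEFs (−0.087 to 3.33) and −1.08 in EpiSCs (−3.30 to 1.14), on ChIP pairs of 3 to 11 counts. These H3K9me3 changes relative to the medians were 2.78 in MEFs and 2.22 in EpiSCs, so their signs were then the same. With 1 library per group these differences were not tested.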

How the results depend on the processing

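No paired analysis was possible because each group held 1 library and the labels give no replicate numbers, and no replicate could be left out for the same reason. Centring each library on the median of the 698 genes moved the MD1 minus WT change to −3.48 at Phf8 for H3K27me3 in MEFs. For H3K9me3 it gave 1.36 (Kdm6a), 0.73 (Kdm5c) and 0.34 (Phf8) in MEFs, and 3.19, 2.85 and −0.044 in EpiSCs for the same genes. It moved the H3K27me3 MEF minus EpiSC differences to 1.82 (Kdm6a), −1.57 (Kdm5c) and −3.01 (Phf8) in MD1 and to 2.28, −2.13 and 0.016 in WT, where Phf8 changed sign. In WT H3K9me3 the same differences became 2.69, 2.72 and −0.0064. Centring on genes poor in H3K9me3 in WT cells gave MD1 minus WT changes of −3.45 at Phf8 for H3K27me3 in MEFs, and of −0.14 (Kdm6a), −2.10 (Kdm5c) and −0.085 (Phf8) in EpiSCs. For H3K9me3 it gave 1.16, 0.53 and 0.14 in MEFs and 1.08, 0.74 and −2.15 in EpiSCs for the same genes. Added after the data were seen, this centring moved the H3K27me3 MEF minus EpiSC differences to 1.90 (Kdm6a), −1.49 (Kdm5c) and −2.93 (Phf8) in MD1 and to 2.69, −1.72 and 0.43 in WT, where Phf8 changed sign. Its gene sets differ between MEFs and EpiSCs, so these differences have no common reference. The MEF change minus the EpiSC change, MD1 minus WT, was also recomputed after the data were seen. For H3K27me3 it became −3.03 at Phf8 by the medians of the 698 genes, and −0.79 (Kdm6a), 0.23 (Kdm5c) and −3.36 (Phf8) by the genes poor in H3K9me3. For H3K9me3 it was 0.31 (Kdm6a), 0.02 (Kdm5c) and 2.52 (Phf8, 1.93 to 3.11) as deposited. By the medians of the 698 genes it became −1.82 (Kdm6a), −2.12 (Kdm5c) and 0.38 (Phf8, −0.21 to 0.98). The genes poor in H3K9me3 gave 0.09 (Kdm6a), −0.21 (Kdm5c) and 2.29 (Phf8, 1.70 to 2.89). These shifts follow from the medians that were subtracted.

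Adding 0.1 to the linear enrichment gave −2.51 for Kdm5c H3K27me3, MEF minus EpiSC in MD1. It moved Phf8 minus Kdm6a in H3K27me3 to 1.25 (MD1 MEF), 3.77 (WT MEF), 5.82 (MD1 EpiSC) and 5.96 (WT EpiSC), Phf8 minus Kdm5c in MD1 MEF to 1.63, and Kdm5c minus Kdm6a to 2.21 (MD1 EpiSC) and 4.27 (WT EpiSC). Percentiles among genes of at least 5000 bases moved for Phf8 to 34.0 (H3K27me3, MD1 EpiSC) and 45.1 (H3K9me3, WT MEF), and for Kdm5c to 30.7 (H3K9me3, MD1 MEF). By Pearson correlation the closest genes shared were 1 of 3 for Kdm6a, 2 for Kdm5c and 0 for Phf8.

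Counts of all genes past the threshold moved as follows. For H3K9me3 MD1 minus WT, centring gave 165 lower and 85 higher in MEFs and 162 lower and 272 higher in EpiSCs. For MEF minus EpiSC it gave 187 lower and 89 higher (H3K27me3, MD1), 15 lower and 161 higher (H3K27me3, WT), and 93 lower and 244 higher (H3K9me3, WT). At 3-fold, H3K27me3 MD1 minus WT had 85 genes higher in MEFs and 39 lower in EpiSCs, and H3K9me3 had 244 lower in MEFs and 3 higher in EpiSCs. At 3-fold, MEF minus EpiSC had 392 lower (H3K27me3, MD1), 69 lower and 28 higher (H3K9me3, MD1) and 14 higher (H3K9me3, WT). The pseudocount left 3 (MEF) and 5 (EpiSC) genes higher in H3K9me3 MD1 minus WT. Without the lowest 10% of genes, those higher were 103 (H3K27me3, EpiSC), 3 (H3K9me3, MEF) and 2 (H3K9me3, EpiSC) for MD1 minus WT, and 6 (H3K27me3, MD1), 9 (H3K27me3, WT) and 12 (H3K9me3, WT) for MEF minus EpiSC. Among the 3 genes, depth limits the H3K9me3 values of Kdm5c in EpiSCs most, with ChIP pairs of 23 (MD1) and 19 (WT).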
